A study of Mus musculus with 6 samples.

Results

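Serum response factor (SRF) and the proteins that join it on DNA were examined at the mRNA level in mouse embryo fibroblasts (MEFs) with and without Rnf40. The genes were taken by symbol as Srf, the myocardin family members Mkl1, Mkl2 and Myocd, and the ternary complex factors (TCFs) Elk1, Elk3 and Elk4, which makes 7 of the 29955 genes in the deposited table. SRF is a MADS-box transcription factor that binds a DNA element called the CArG box and has little activity without a partner. Myocardin-related transcription factors (MRTFs) are held in the cytoplasm by monomeric actin and enter the nucleus when actin is driven into filaments, after which they activate cytoskeletal and contractile genes with SRF. TCFs are ETS-domain proteins that are phosphorylated in response to growth factors and act with SRF on immediate early genes, and both kinds of partner compete for the same surface of SRF. In fibroblasts these branches are known for linking growth factors, adhesion and cell shape to transcription.

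RNA was sequenced from 3 Rnf40+/+ and 3 Rnf40-/- MEF libraries, all at passage 3. The MEFs came from embryos with loxP sites around exons 3 and 4 of Rnf40 and a Rosa26-CreERT2 transgene, which expresses a tamoxifen-inducible Cre in every cell type, and deletion was induced with 250 nM 4-hydroxytamoxifen (4-OHT) for 5 days followed by 3 days without it. Whether Rnf40+/+ MEFs for sequencing were given 4-OHT is not in the methods, so deletion and treatment cannot be told apart here. The labels do not say whether replicates were separate embryos or cultures, and p-values then measure only the spread between these libraries, which may be technical.

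Each value in the deposited table is a read number scaled by the size factor of its library and is called a normalized count below. On genes there were 17053436, 20781071 and 26344170 reads in Rnf40+/+ MEFs, and 18741606, 18115481 and 20495627 in Rnf40-/- MEFs. The ranges of depth overlapped between genotypes. For scale, 3 reads correspond to 2.40 to 3.58 normalized counts across the libraries. Values below are given in the order of replicates 1, 2 and 3, means carry the SD of 3 libraries, and changes are Rnf40-/- over Rnf40+/+ on the scale of log2(normalized count + 1), which understates the change of genes with few reads. A gene was called when the adjusted p of limma, with Benjamini-Hochberg adjustment over all 16378 genes tested, was under 0.05.

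Rnf40 (ENSMUSG00000030816, chr7:134732212-134747119 of mm9, plus strand), the ubiquitin ligase gene that was deleted, had 1278, 1195 and 1096 normalized counts in Rnf40+/+ MEFs and 439, 519 and 487 in Rnf40-/- MEFs. Each library therefore fitted its label, with 40.5% of the Rnf40+/+ mean left in Rnf40-/- MEFs. The table gives a single value per gene, so exons 3 and 4 cannot be seen separately.

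The libraries were next compared with markers of the cell types they could hold. The 8 fibroblast markers were all abundant, with summed normalized counts of 668237, 703646 and 739419 in Rnf40+/+ MEFs and 401671, 398751 and 400424 in Rnf40-/- MEFs. Fn1, the gene of fibronectin, was the most abundant of them, and all 8 were called lower in Rnf40-/- MEFs. The cells thus carried the fibroblast genes of their label, at a lower level in Rnf40-/- MEFs. In bulk RNA, fewer cells of a type and less RNA per cell cannot be told apart.

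Rnf40+/+ replicate 1 stood apart from the other libraries for some genes of striated muscle and not for others. Actc1, the cardiac actin gene, had 937 normalized counts there, against 10.2 and 7.99 in Rnf40+/+ replicates 2 and 3 and 1.02, 1.04 and 4.72 in Rnf40-/- MEFs. Acta1, the skeletal actin gene, had 4449 in this library against 1905 and 1592 in the other Rnf40+/+ replicates. Des, which encodes the intermediate filament desmin, had 431 against 126 and 114. The summed counts of the 7 cardiac and skeletal muscle markers did not set this library apart, at 566, 297 and 494 in Rnf40+/+ MEFs and 353, 504 and 570.3 in Rnf40-/- MEFs. Actn2 made up most of this sum. Ttn, the gene of titin, did set this library apart, with 83.6 against 19.4 and 13.6 in the other Rnf40+/+ replicates. In Rnf40-/- MEFs Ttn had at most 32.4. Tnnt2, also in this list, was lowest in this library, with 62.1 against 68.3 and 92.6 in the other Rnf40+/+ replicates. In Rnf40-/- MEFs Tnnt2 had 102, 87.7 and 135. None of the 3 markers tested was called, and Myod1 and Nkx2-5, which define skeletal and cardiac lineages, had at most 3 reads in every library. Over all genes, Rnf40+/+ replicate 3 was the farthest from the others of its genotype, with a chi-squared per gene of 29.0 against replicate 1 and 26.3 against replicate 2, where replicates 1 and 2 had 8.09. Counts for the lists are therefore also given as the range over fits that left out each library in turn.

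Markers of macrophages and endothelial cells were called in part, and those of epithelial cells were not. The 5 endothelial markers summed to 146, 51.0 and 61.5 normalized counts in Rnf40+/+ MEFs and 187, 283 and 179 in Rnf40-/- MEFs, with 3 of 4 tested called higher. Over all libraries Kdr was the most abundant of them, but Tek made up 115 of the sum in Rnf40+/+ replicate 1, against 11.2 and 16.0 in the other Rnf40+/+ replicates. The 7 macrophage markers summed to 5041, 5676 and 9132 in Rnf40+/+ MEFs and 3563, 3278 and 3618 in Rnf40-/- MEFs. Lyz2 was the most abundant macrophage marker, with 7440 in Rnf40+/+ replicate 3, and 2 of the 7 were called lower, 2 higher and 3 not at all. The 5 epithelial markers summed to 97.9, 26.5 and 55.1 in Rnf40+/+ MEFs and 53.0, 33.4 and 30.2 in Rnf40-/- MEFs, with 0 of 2 tested called. Over all libraries Krt18 was the most abundant of them, but in Rnf40+/+ replicate 1 Krt8 was higher, at 58.5 against 22.7. The part of these cell types in the results below was not tested.

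All 7 genes passed the filter on low values, and they did not move as a unit. Srf and Elk1 were called lower in Rnf40-/- MEFs, which is 2 of 7, beside 24.1% of all genes tested that were called lower. Mkl2 was called higher, which is 1 of 7, beside 23.3% of all genes tested. In either direction 3 of 7 were called, beside 47.4% of all genes tested, so the share called was near that of genes in general. The genotypes did not overlap for 4 of 7, beside 56.5% of all genes tested, and 0 of 7 passed the criteria of the study (mean above 15, unadjusted p under 0.05 and a log2 fold change of more than 1 in size), beside 9.95% of all genes tested. At an unadjusted p under 0.05, the second of these criteria, Srf, Mkl1, Mkl2 and Elk1 passed, but their changes were under 1 on the log2 scale. Srf, Elk1 and Mkl2 were also called in each fit that left out a library. The median log2 fold change of all genes tested was -0.0035, and the median absolute log2 fold change was 0.335.

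**Figure D1:**
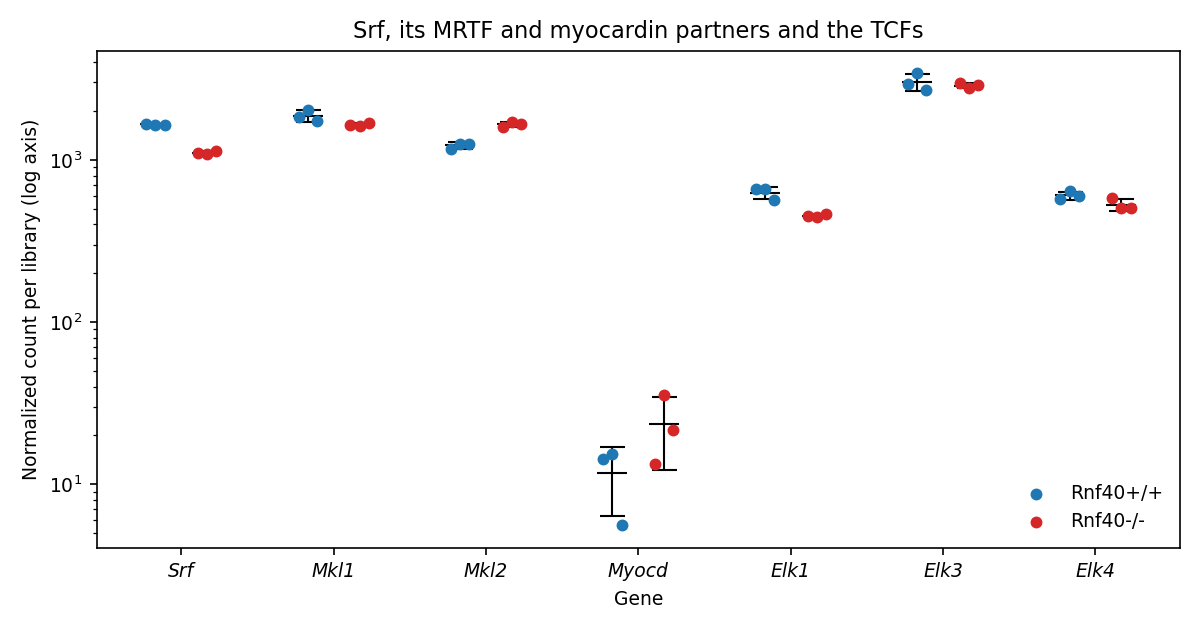
Normalized counts (log axis) of the 7 genes in each library. Points are libraries, 3 for each genotype, and black bars are the mean with the SD. Srf lay between 1637 and 1673 in Rnf40+/+ MEFs and between 1091 and 1127 in Rnf40-/- MEFs, Mkl2 moved the other way, and Myocd was far below the other genes in all libraries.

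Srf (ENSMUSG00000015605, chr17:46683788-46693111 of mm9, minus strand) is a gene of 7 exons with an annotated transcript of 4093 nucleotides. It had 1673, 1637 and 1643 normalized counts in Rnf40+/+ MEFs and 1105, 1091 and 1127 in Rnf40-/- MEFs. Every Rnf40-/- library was below every Rnf40+/+ library, and replicates of a genotype were close to each other. The mean went from 1651 ± 19.4 to 1108 ± 18.5 (SD, n = 3 per genotype), which is 67.1% of the Rnf40+/+ mean. On the log2 scale the change was -0.58 (SE 0.0632, 95% confidence interval -0.71 to -0.44, adjusted p of limma 1.67e-05). By the size of its log2 fold change, Srf stood at percentile 71.7 of all genes tested.

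Of Mkl1 and Mkl2, which encode MRTF-A and MRTF-B, only Mkl2 was called. Mkl1 (ENSMUSG00000042292, chr15:80842711-81021187 of mm9, minus strand) had 1844, 2025 and 1731 normalized counts in Rnf40+/+ MEFs and 1646, 1607 and 1681 in Rnf40-/- MEFs. The highest Rnf40-/- library was below the lowest Rnf40+/+ library, but by less than the distance among the Rnf40+/+ replicates. The log2 fold change of Mkl1 was -0.18 (SE 0.072, 95% confidence interval -0.34 to -0.02), with an adjusted p of limma of 0.0576, and Mkl1 was not called. Over 9 other settings its adjusted p lay between 0.0485 and 0.154. The quasi-likelihood test of edgeR gave 0.049 and so did call it, as did limma without Rnf40+/+ replicate 3, with a log2 fold change of -0.23 and an adjusted p of 0.0143.

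Mkl2 (ENSMUSG00000009569, chr16:13256574-13417622 of mm9, plus strand) had 1163, 1258 and 1259 normalized counts in Rnf40+/+ MEFs and 1598, 1718 and 1659 in Rnf40-/- MEFs. All Rnf40-/- libraries were above all Rnf40+/+ libraries. The mean rose from 1227 ± 55.0 to 1658 ± 60.0 (SD, n = 3 per genotype), a 1.35-fold rise, with a log2 fold change of 0.43 (SE 0.068, 95% confidence interval 0.29 to 0.58, adjusted p of limma 0.000257).

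The balance of Mkl1 and Mkl2 was then taken within each library, where it does not depend on the scaling between libraries. The log2 count of Mkl1 minus that of Mkl2 was 0.66, 0.69 and 0.46 in Rnf40+/+ MEFs and 0.04, -0.10 and 0.02 in Rnf40-/- MEFs. Mkl1 thus had the higher count in each Rnf40+/+ library, while in Rnf40-/- MEFs both genes had about the same count. The difference between genotypes was -0.61, with a two-sided exact permutation p of 0.1, the smallest that 3 against 3 libraries can give, and 0.15 after Benjamini-Hochberg adjustment over 3 such differences. The genotypes did not overlap, but this permutation test cannot reach a p under 0.05 with 3 against 3 libraries.

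Myocd (ENSMUSG00000020542, chr11:64990063-65083491 of mm9, minus strand) encodes myocardin, the family member of heart and smooth muscle, which enters the nucleus without the need for actin signals. It had 12, 15 and 7 reads in Rnf40+/+ MEFs and 13, 34 and 23 reads in Rnf40-/- MEFs, or 14.3, 15.3 and 5.59 against 13.3, 35.5 and 21.7 normalized counts. Rnf40-/- replicate 1 lay inside the Rnf40+/+ range. The log2 fold change was 0.95 (SE 0.471, 95% confidence interval -0.08 to 1.98, adjusted p of limma 0.12), and Myocd was not called. This was the largest change in size among the 7 genes, but it fell to 0.53 when Rnf40+/+ replicate 3 was left out and to 0.61 when Rnf40-/- replicate 2 was, and the first of these is below the size for Srf.

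Of the TCF genes, only Elk1 was called. Elk1 (ENSMUSG00000009406, chrX:20510521-20527734 of mm9, minus strand) had 659, 659 and 565 normalized counts in Rnf40+/+ MEFs and 448, 441 and 463 in Rnf40-/- MEFs. The Rnf40-/- libraries were close together and below each Rnf40+/+ library. The mean went from 628 ± 54.5 to 451 ± 10.9 (SD, n = 3 per genotype), with a log2 fold change of -0.47 (SE 0.090, 95% confidence interval -0.67 to -0.28, adjusted p of limma 0.00103). Elk1 shares 76 exonic bases with Uxt on the same strand, or 1.41% of its exonic bases, and Uxt was also called lower (log2 fold change -0.43), so reads in this overlap are uncertain.

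Elk3 (ENSMUSG00000008398, chr10:92710159-92773880 of mm9, minus strand) encodes the TCF known as NET, which represses its targets until it is phosphorylated. It had 2932, 3412 and 2700.0 normalized counts in Rnf40+/+ MEFs and 2969, 2758 and 2885 in Rnf40-/- MEFs. The genotypes overlapped, and Rnf40+/+ replicates varied more than Rnf40-/- replicates. The log2 fold change was -0.06 (95% confidence interval -0.25 to 0.12, adjusted p of limma 0.552), and it was 0.03 without Rnf40+/+ replicate 2. Elk3 shares 6.95% of its exonic bases with Cdk17 on the other strand, and Cdk17 was called lower (log2 fold change -0.47). The library kit keeps the strand, but whether the counting used it is not given in the sources used here.

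Elk4 (ENSMUSG00000026436, chr1:133904184-133929189 of mm9, plus strand) encodes the TCF known as SAP1. It had 571, 639 and 599 normalized counts in Rnf40+/+ MEFs and 584, 502 and 503 in Rnf40-/- MEFs. Rnf40-/- replicate 1 lay inside the Rnf40+/+ range and the other Rnf40-/- libraries below it. The log2 fold change was -0.19 (95% confidence interval -0.39 to 0.01, adjusted p of limma 0.112), and Elk4 was not called. Within libraries, the log2 count of Elk1 minus that of Elk4 was 0.21, 0.04 and -0.09 in Rnf40+/+ MEFs and -0.38, -0.18 and -0.12 in Rnf40-/- MEFs. The genotypes did not overlap in this balance, and the difference of -0.28 had a two-sided exact permutation p of 0.1, the smallest possible (0.15 after adjustment over 3 differences). The log2 count of Elk3 minus that of Elk4 went from 2.31 ± 0.128 to 2.44 ± 0.0879 (SD, n = 3 per genotype), with overlap and a two-sided exact permutation p of 0.3 before and after adjustment.

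To compare levels between genes, normalized counts were divided by the length of the longest annotated transcript in kilobases. On this scale Elk3 was highest in Rnf40+/+ MEFs, at 716 ± 86.2 normalized counts per kb (SD, n = 3). Mkl1 at 425 ± 33.8 and Srf at 403 ± 4.73 followed and overlapped with each other. Elk1 at 177 ± 15.4 and Elk4 at 172 ± 9.82 were lower and also overlapped, Mkl2 came next at 148 ± 6.63, and Myocd was at 2.30 ± 1.05. The Rnf40+/+ cells therefore held about as much Srf as Mkl1 mRNA per length, and little Myocd.

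In Rnf40-/- MEFs the order was different below the top. Elk3 was again highest, at 682 ± 25.2 normalized counts per kb (SD, n = 3), followed by Mkl1 at 374 ± 8.37 and Srf at 271 ± 4.52, which no longer overlapped. Mkl2 came next at 199.9 ± 7.23, above Elk4 at 151 ± 13.4 and Elk1 at 127 ± 3.07, and no neighbours in this order overlapped. Myocd was last, at 4.59 ± 2.19. Mkl2 thus went from rank 6 to rank 4 and Elk1 from rank 4 to rank 6. These levels per length depend on the transcript chosen, which for Mkl2 is the longest of the 7 at 8295 nucleotides.

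The sum of Mkl1 and Mkl2 per length overlapped between genotypes. It was 560.1, 613 and 546 normalized counts per kb in Rnf40+/+ MEFs and 567, 573 and 583 in Rnf40-/- MEFs, so that the Rnf40-/- values lay inside the Rnf40+/+ range. Within this sum the share of Mkl2 was 25.0%, 24.8% and 27.8% in Rnf40+/+ MEFs and 34.0%, 36.1% and 34.3% in Rnf40-/- MEFs. Every Rnf40-/- share was above every Rnf40+/+ share. For the TCFs, Elk1 made up 17.8%, 15.8% and 16.4% of the sum of Elk1, Elk3 and Elk4 per length in Rnf40+/+ MEFs and 12.6%, 13.5% and 13.6% in Rnf40-/- MEFs. Elk3 made up most of that sum in both genotypes, with means of 67.1% ± 1.44 and 71.0% ± 0.388 (SD, n = 3 per genotype).

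Genes with a profile like that of Srf were taken by Pearson correlation of log2 counts over the 6 libraries, as a description of libraries that fall into 2 genotypes. Closest to Srf were Smtn (r = 0.9998), Cldn1 (r = 0.9994) and Npas4 (r = 0.9993). Smtn encodes the smooth muscle protein smoothelin, Cldn1 a tight junction protein and Npas4 an activity-induced transcription factor of neurons. Their log2 fold changes were -1.79, -1.60 and -2.82, each larger in size than that of Srf. Closest to Myocd were Napg (r = 0.986), Brd7 (r = 0.981) and Gmps (r = 0.979), whose log2 fold changes were 0.07, 0.13 and 0.10. Myocd had only 7 to 34 reads in a library. All these genes were picked as the closest among all others with a mean above 15, over only 6 libraries, so a high r shows no shared regulation.

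The genes that MRTFs and SRF are known to activate were lower almost throughout. Of 32 listed MRTF-SRF targets, 31 were tested, 28 were called lower and 0 higher, beside 24.1% lower and 23.3% higher among all genes tested. This list, like those below, was chosen with earlier results of these data known, so its counts are a description only. At an unadjusted p under 0.05 also 0 were higher, and edgeR called 28 lower and 0 higher. The median log2 fold change of the list was -0.96, beside -0.0035 for all genes. Relative to the Rnf40+/+ mean of each gene, the median of the list was 0.02, 0.07 and -0.09 in Rnf40+/+ libraries and -1.05, -0.96 and -0.96 in Rnf40-/- libraries. With each library left out in turn, 27 to 28 were lower, 0 were higher and the median was -0.93 or lower. The list holds all 7 smooth muscle markers, which were all called lower, with summed counts of 158096, 170316 and 155552 in Rnf40+/+ MEFs and 27121, 24987 and 30182 in Rnf40-/- MEFs, and Acta2 the most abundant of them. All 8 fibroblast markers were also called lower, as given above. Fewer cells that express smooth muscle genes and less of this RNA per cell cannot be told apart in bulk RNA, and this was not tested.

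**Figure D2:**
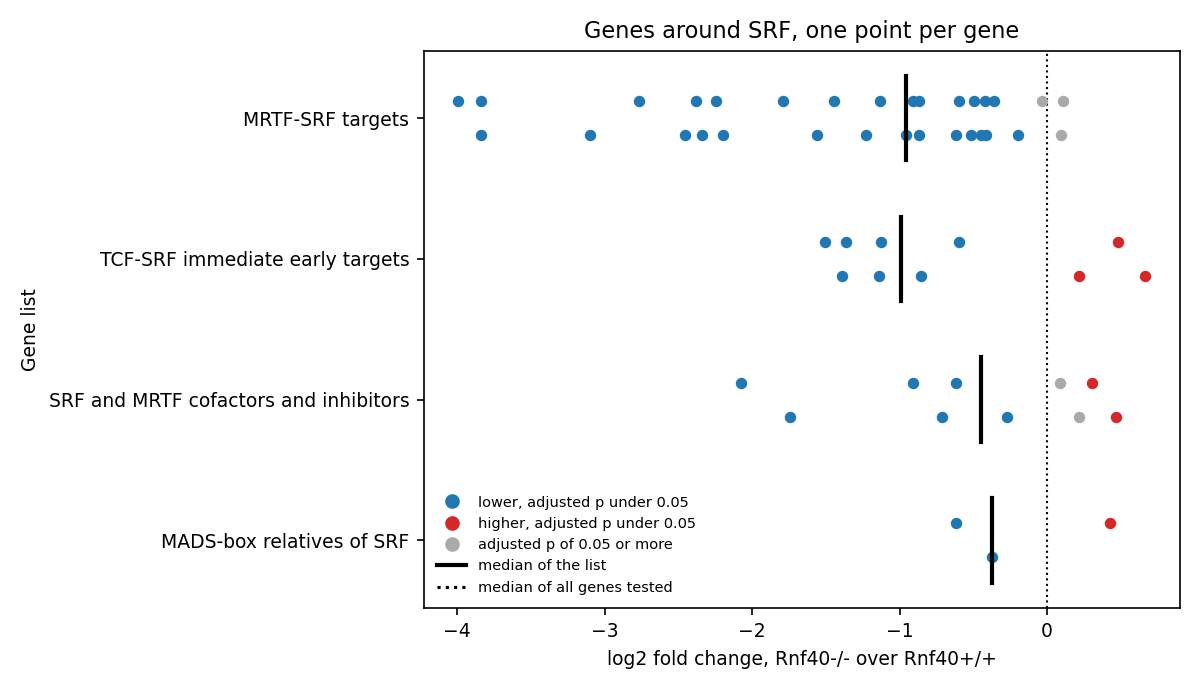
Log2 fold change (Rnf40-/- over Rnf40+/+) of each tested gene in the lists around SRF, coloured by its call. Black bars are list medians and the dotted line is the median of all genes tested. The MRTF-SRF targets reach down to -3.99 with 0 called higher, while the TCF-SRF list has 7 genes called lower and 3 called higher.

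The largest falls in the list were those of Cnn1 and Actg2. Cnn1, which encodes calponin, an actin-binding regulator of smooth muscle contraction, had 4559.6, 4856 and 3855 normalized counts in Rnf40+/+ MEFs and 263, 279 and 286 in Rnf40-/- MEFs, a log2 fold change of -3.99 (SE 0.0892, adjusted p of limma 2.2e-10). Actg2, the enteric smooth muscle actin, had 4326, 4744 and 4119 against 276, 290.1 and 355, a log2 fold change of -3.84 (SE 0.0971, adjusted p of limma 3.5e-10). Cnn1 was 16.0-fold and Actg2 14.3-fold lower in Rnf40-/- MEFs, with replicates of a genotype close together. Myl9, the regulatory light chain of non-muscle and smooth muscle myosin, fell by a similar amount, with a log2 fold change of -3.84 (SE 0.106).

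Acta2, the smooth muscle actin that marks activated fibroblasts, was among the most abundant genes of the list. It had 104226, 110760.0 and 98613 normalized counts in Rnf40+/+ MEFs and 20447, 18682 and 22852 in Rnf40-/- MEFs, a log2 fold change of -2.34 (SE 0.0918, adjusted p of limma 7.63e-09). The actin genes are near-identical in their coding sequence, and the counting could split reads between them, so the values of single actin genes are uncertain. Acta1, Actb, Actg1 and Actg2, the other actin genes tested, were also called lower.

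Vcl and Fhl2 fell less than Cnn1, Actg2, Myl9 and Acta2. Vcl, which encodes vinculin, a linker between integrins and actin, had 19762, 21281 and 18137 normalized counts in Rnf40+/+ MEFs and 14784, 15096 and 14442 in Rnf40-/- MEFs. The genotypes were separate, with a log2 fold change of -0.41 (SE 0.0736, adjusted p of limma 0.000653). Vcl shares 39.9% of its exonic bases with Ap3m1 on the other strand, which was called higher (log2 fold change 0.30), so its value is uncertain if the strand was not counted. Fhl2, a LIM protein that is both a target and a partner of SRF, had 5392, 5626 and 5341 against 2891, 3009.9 and 2799, a log2 fold change of -0.91 (SE 0.0609, adjusted p of limma 3.34e-07).

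The 3 tested targets that were not called lower were named after their values were seen. Itgb1, the integrin beta subunit of fibronectin receptors, had 89159.5 ± 6673 normalized counts in Rnf40+/+ MEFs and 95164 ± 1678 in Rnf40-/- MEFs (SD, n = 3 per genotype; log2 fold change 0.10, 95% confidence interval -0.10 to 0.30). Cyr61, a secreted matricellular protein, had a log2 fold change of 0.10 (95% confidence interval -0.04 to 0.25). Every Rnf40-/- library was above every Rnf40+/+ library for Cyr61, but it was not called. Ctgf, a related secreted protein, had a log2 fold change of -0.03 (95% confidence interval -0.23 to 0.16). None of these intervals reached the median of the list. The listed gene that was not tested is Actc1, whose values are given above.

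The immediate early genes that TCFs and SRF are known to induce split into falls and rises. Of 11 listed, 10 were tested, of which 7 were called lower and 3 higher, beside 24.1% and 23.3% of all genes tested. The median log2 fold change was -0.99, beside -0.0035 for all genes, and over fits without single libraries it ran from -1.09 to -0.89, with 6 to 7 genes lower and 2 to 3 higher. Relative to the Rnf40+/+ mean of each gene, the median of the list was 0.11, 0.05 and -0.19 in Rnf40+/+ libraries and -0.80, -0.98 and -1.03 in Rnf40-/- libraries. Egr4, the gene not tested, had 26.3, 8.16 and 3.19 normalized counts in Rnf40+/+ MEFs and 0, 1.04 and 1.89 in Rnf40-/- MEFs.

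The Egr genes, which encode zinc finger transcription factors, fell. Egr3 had 118, 117 and 101 normalized counts in Rnf40+/+ MEFs and 47.9, 43.8 and 27.4 in Rnf40-/- MEFs, a log2 fold change of -1.51 (SE 0.232, adjusted p of limma 0.000231). Egr2 had 89.6, 91.8 and 56.7 against 30.6, 36.5 and 21.7, a log2 fold change of -1.39 (SE 0.273, adjusted p of limma 0.00128). Egr1, the most abundant of them by count, had 3067, 2475 and 2028 against 1226, 1244 and 942, a log2 fold change of -1.14 (SE 0.139, adjusted p of limma 3.92e-05). For each of these genes, the lowest Rnf40+/+ library was above the highest Rnf40-/- library.

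The AP-1 genes in the list were split. Fosb, named after its values were seen, fell from 58.5, 61.2 and 42.3 normalized counts to 35.7, 24.0 and 28.3, a log2 fold change of -0.86 (SE 0.26, adjusted p of limma 0.0169). Its adjusted p was 0.0678 without Rnf40+/+ replicate 2 and 0.0636 without Rnf40-/- replicate 2. Fos and Junb rose. Junb had 2095, 1924 and 1675 normalized counts in Rnf40+/+ MEFs and 2999.8, 3065 and 2935 in Rnf40-/- MEFs, a log2 fold change of 0.67 (SE 0.0804, adjusted p of limma 3.6e-05). Fos, the gene in which the SRF site was first described, had 258, 211 and 189 against 332, 324 and 261, a log2 fold change of 0.48 (SE 0.142, adjusted p of limma 0.0149). The genotypes were apart by little for Fos, with 258 as the highest Rnf40+/+ and 261 as the lowest Rnf40-/- library. Its adjusted p rose to 0.053 when Rnf40+/+ replicate 2 was left out, to 0.0698 when Rnf40-/- replicate 1 was, and to 0.0637 when Rnf40-/- replicate 2 was. Mcl1, an anti-apoptotic gene and the other one called higher, had a log2 fold change of 0.22 and was named after its value was seen.

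Among cofactors and inhibitors of SRF and MRTFs, more genes were called lower than higher. Of 12 listed, 10 were tested, 6 were called lower and 2 higher, beside 24.1% and 23.3% of all genes tested, and the median log2 fold change was -0.45. With each library left out in turn, 5 to 6 were lower, 1 to 3 were higher and the median ran from -0.51 to -0.40, and edgeR and upper-quartile scaling gave 5 lower. Csrp1, a LIM protein that bridges SRF and GATA factors, fell from 7994, 8831 and 8461 normalized counts to 2002, 1826 and 2165, a log2 fold change of -2.08 (SE 0.0741, adjusted p of limma 4.83e-09). Csrp2, its relative, fell from 313, 391 and 436 to 89.7, 124 and 125, a log2 fold change of -1.74 (SE 0.165). Fhl1 and Fhl2 are in this list and in that of the MRTF-SRF targets, so the lists share these falls. Gata4 and Nkx2-5, partners of SRF in the heart, were not tested, with at most 3.99 and 2.09 normalized counts in any library.

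The calls of Scai and Foxo4, which are in this list, depended on the setting or on single libraries. Scai, a repressor of MRTF, had 425, 449.7 and 434 normalized counts in Rnf40+/+ MEFs and 343, 415 and 329 in Rnf40-/- MEFs. Its log2 fold change of -0.28 (SE 0.106) had an adjusted p of limma of 0.0496, just past the threshold, and this call was lost under 6 of 9 other settings, over which the adjusted p ran from 0.0324 to 0.0974. Leaving out a library lost it in 5 of 6 cases, with log2 fold changes from -0.38 to -0.21. Klf4, a zinc finger factor that represses smooth muscle genes, rose from 2342, 2366 and 2036 to 3066, 3189 and 3046, a log2 fold change of 0.47 (SE 0.0716, adjusted p of limma 0.000223). Foxo4, which binds myocardin, had a log2 fold change of 0.30 (SE 0.102, adjusted p of limma 0.0282), a call kept in 1 of 6 fits that left out a library.

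The MEF2 genes, relatives of SRF by their MADS box, are given for comparison. Of 4 listed, 3 were tested, with 2 called lower, 1 higher and a median log2 fold change of -0.38, beside 24.1% lower and 23.3% higher among all genes tested. Mef2a rose from 1013, 973 and 914 normalized counts to 1310.3, 1386 and 1204 (log2 fold change 0.43, adjusted p of limma 0.00075). Mef2d had a log2 fold change of -0.38 (adjusted p of limma 0.00148). Mef2c had 275, 168 and 159.7 against 118, 133 and 128, a log2 fold change of -0.62 (adjusted p of limma 0.0187), but without Rnf40+/+ replicate 1 it was -0.37 with an adjusted p of 0.0615, and without Rnf40-/- replicate 1 the adjusted p was 0.0621. In the absence of either library, 1 MEF2 gene was called lower. Mef2b, the gene not tested, had at most 4.08 normalized counts.

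Promoters were searched for the CArG box, taken as CC, then 6 bases that are A or T, then GG, which reads the same class of letters on both strands. The sequences run from 250 bases before to 50 bases after each start and are from RefSeq (GRCm38.p6), and positions in mm9 are from an exact match of each sequence to that genome. Of 32851 promoters, 1.63% hold a CArG box and 0.0183% hold more than 1. Promoters were found for 6 of the 7 genes, all but Myocd, and of these only Srf has a CArG box in this window. Its promoter has 2, which start at positions -82 and -62 from the start of transcription, and 1 match to CCGGAA, an ETS core searched on both strands, at -122, which 14.9% of promoters hold. The 250 bases upstream of Srf (chr17:46693112-46693361 of mm9, minus strand) are shown because the gene carries the letters of its own product's site, with the CArG boxes in capitals.
Srf: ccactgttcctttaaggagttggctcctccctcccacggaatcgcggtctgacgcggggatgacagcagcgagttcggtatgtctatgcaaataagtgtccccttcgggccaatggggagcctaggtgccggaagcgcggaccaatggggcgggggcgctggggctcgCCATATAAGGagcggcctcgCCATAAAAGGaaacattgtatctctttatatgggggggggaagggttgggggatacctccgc

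The other matches to CCGGAA were in promoters of Mkl2 and Elk4. A match is a description of letters and shows no binding. Of the 32 MRTF-SRF targets, 26 had a promoter sequence and 8 of these held a CArG box, beside 1.81% of 27025 genes with a promoter. Of the 11 TCF-SRF genes, 7 had a sequence and 1 held a CArG box, too few sequences to describe that list. The boxes of these genes are shown with 10 bases on each side, from the gene's own strand, with the box in capitals.
Acta1 (chr8:126418729-126418758 of mm9, minus strand): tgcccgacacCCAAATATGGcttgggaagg
Actc1 (chr2:113878639-113878668 of mm9, minus strand): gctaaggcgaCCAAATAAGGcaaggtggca
Actg1 (chr11:120209880-120209909 of mm9, minus strand): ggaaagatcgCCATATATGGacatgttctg
Myl9 (chr2:156601029-156601058 of mm9, plus strand): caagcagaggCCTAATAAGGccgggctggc
Cnn2 (chr10:79451279-79451308 of mm9, plus strand): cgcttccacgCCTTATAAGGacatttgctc
Vcl (chr14:21748383-21748412 of mm9, plus strand): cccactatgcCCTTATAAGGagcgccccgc
Fhl2 (chr1:43253683-43253712 of mm9, minus strand): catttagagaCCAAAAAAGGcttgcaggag
Fhl2 (chr1:43220818-43220847 of mm9, minus strand): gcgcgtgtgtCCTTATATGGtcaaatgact
Fhl1 (chrX:54032748-54032777 of mm9, plus strand): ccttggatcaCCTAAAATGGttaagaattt
Egr2 (chr10:67000232-67000261 of mm9, plus strand): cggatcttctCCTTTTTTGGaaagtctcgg
Egr2 (chr10:67000535-67000564 of mm9, plus strand): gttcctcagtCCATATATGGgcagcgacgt

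Of the listed genes with these boxes, Acta1, Actg1, Myl9, Cnn2, Vcl, Fhl1, Fhl2 and Egr2 were called lower, and Actc1 was not tested. The boxes differ in their A and T letters, and several genes that fell, such as Cnn1 and Acta2, hold no exact match in this window. Sequences that depart from the pattern, for example by a G or C among the A and T letters, were not counted for the listed genes. The lack of an exact match therefore does not show that a gene has no SRF site, which was not tested.

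The search was extended, after values were seen, to all genes tested. A promoter sequence was at hand for 11625 of them, or 71.0%, and the counts hold for these genes only. Of 189 tested genes with a CArG box, 83 (43.9%) were called lower and 29 (15.3%) higher, with a median log2 fold change of -0.26. Of 11436 without one, 2897 (25.3%) were called lower and 2758 (24.1%) higher, with a median of -0.0084, which was 0.04 with upper-quartile scaling. The difference between these groups was not tested. With the 7 genes and the listed target genes left out, 74 of 180 genes with a box (41.1%) were lower and 29 (16.1%) higher. With each library left out in turn, 69 to 85 of the 189 were lower and 21 to 28 higher. For CCGGAA, 24.4% of 3400 genes with a match and 26.2% of 8225 genes without one were called lower, and 23.6% and 24.1% were called higher.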

How the data were processed

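RNA-seq libraries of 3 Rnf40+/+ and 3 Rnf40-/- MEF samples were made from 1 µg of total RNA with a strand-keeping kit. The authors mapped the reads to mm9 (Bowtie2 2.1.0 and DESeq 1.14.0 in the submitters' notes) and deposited, as signal per gene, counts divided by DESeq size factors. Of the positive values in each library, 100% were whole multiples (within 0.01) of the smallest, which gave back the reads; 7410 genes had no read. A filter by genotype (filterByExpr, edgeR version 4.0.16) kept 16378 genes, which limma (version 3.58.1, trend) tested on log2(normalized count + 1), with genotype as the only term, in R (version 4.3.3). It called 3955 genes lower and 3809 higher; the count test of edgeR called 3940 and 3857. Scripts were tested on simulated data, and no library duplicated another. Promoters were read in Python (version 3.11.15) and pandas (version 2.3.3).

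The members and lists were chosen with earlier results of these data known. Named genes are the 7 members, Rnf40, in each list the 2 largest rises and falls among called genes with a mean above 15, a few chosen in any case (Acta2, Myl9, Vcl, Fos, Egr1, Scai and Fhl2), and the 3 genes most correlated with Srf and with Myocd, the member of largest absolute change. Alternatives were other scalings, filters, pseudocounts (0.1 and 10), DESeq2 (version 1.42.0), edgeR, a replicate block, the criteria of the study and leaving out each library; upper-quartile scaling of lists and all counts by CArG box were added after seeing the data. Lists were described by counts and medians, without a test, and 2 further lists are not reported here.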

Additional observations from a re-analysis of the deposited data

How the results depend on the processing

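The calls of Srf, Mkl2 and Elk1 and the lack of a call for Myocd, Elk3 and Elk4 held under the alternatives tried (9 per gene, and 8 for Myocd, which a filter of 10 reads per library removes), as did the directions. Leaving out each library in turn gave log2 fold changes of -0.59 to -0.56 for Srf, -0.23 to -0.12 for Mkl1, 0.40 to 0.46 for Mkl2, 0.53 to 1.29 for Myocd, -0.55 to -0.44 for Elk1, -0.26 to -0.15 for Elk4 and -1.36 to -1.24 for Rnf40. Elk3 ran from -0.14 to 0.0284, and so changed sign without Rnf40+/+ replicate 2. Mkl1, not called in the main fit, was called by edgeR (-0.18, adjusted p 0.049), by the replicate block (-0.18, adjusted p 0.0485) and without Rnf40+/+ replicate 3 (-0.23, adjusted p 0.0143); the cause was not tested.

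Replicate numbers did not pair the libraries: deviations of same-numbered libraries from their group means correlated by 0.020, 0.026 and 0.038 over 15499 genes, and not every library correlated best with its own number. The block gave 4196 genes lower and 4021 higher, against 3955 and 3809, and changed no other call among the 7 genes.

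The criteria of the study gave 934 genes lower and 696 higher, under a rule with an unadjusted p, a minimum mean and a minimum fold change. Leaving out libraries gave 3335 to 3886 lower and 3030 to 3761 higher. Upper-quartile scaling shifted log2 fold changes by a median of 0.048 and gave 3536 genes lower and 4299 higher. More genes were then higher than lower, the reverse of the main fit. The same reversal was seen with no gene filter (3844 lower, 4001 higher) and without Rnf40+/+ replicate 2 (3528 lower, 3541 higher). For the lists, upper-quartile scaling was chosen after seeing the data. It gave a median of -0.40 for cofactors and inhibitors, and medians of -0.21 and 0.0391 for genes with and without a CArG box. Leaving out libraries, the cofactors had 5 to 6 genes lower and 1 to 3 higher with medians from -0.51 to -0.40 and the MEF2 genes had 1 to 2 lower with medians from -0.44 to -0.34. The balances within families kept their sign under 2 other pseudocounts and with each library left out (-0.69 to -0.57 for Mkl1 minus Mkl2). Myocd had only 7 to 34 reads in a library.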
